A study of Homo sapiens with 12 samples.

Results

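The 39 HOX cluster genes were examined among the 17197 gene symbols of a human expression study. They were taken by name alone, as every symbol made of HOXA, HOXB, HOXC or HOXD followed by a number, and no measured value entered the choice. RNA was sequenced from AC16, an established human line derived from a fusion of adult ventricular heart cells with virus-transformed fibroblasts. All 12 libraries came from cells transfected with an siRNA through jetPRIME in serum-free medium. The siEP300.H2O2 cells (libraries 10 to 12) received an siRNA against EP300 and hydrogen peroxide, added 12 h later and left for 1 h; the labels give its dose as 200 mM, and whether that unit is right is not known. The siNC.H2O2 cells (libraries 7 to 9) received a negative control siRNA and the same oxidant. The siEP300 cells (libraries 4 to 6) received the EP300 siRNA and the siNC cells (libraries 1 to 3) the control siRNA, both without oxidant. RNA was taken after 48 h with Trizol. Separate cultures are not stated for the 3 libraries in each group, so the p-values cover only the variation among these samples, and that variation may be technical.

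HOX genes encode homeodomain transcription factors that specify position along the body axis of the embryo. Their order along the chromosome follows the order in which they are expressed from head to tail, and genes at the same place in different clusters, the paralogs, are most alike in sequence. Adult fibroblasts and mesodermal lines keep a HOX pattern that reflects where in the body they came from. EP300 is a lysine acetyltransferase that serves as a transcriptional coactivator at enhancers and promoters.

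The HOXA cluster (11 symbols) spans 107.1 kb of chromosome 7, from 27092993 to 27200106 on the minus strand of GRCh38 in GENCODE v29. The HOXB cluster (10 symbols) spans 200.7 kb of chromosome 17, from 48528526 to 48729178, also on the minus strand. The HOXC cluster (9 symbols) lies on the plus strand of chromosome 12 from 53938765 to 54056030, and the HOXD cluster (9 symbols) on the plus strand of chromosome 2 from 176092891 to 176190907. These genes are packed closely, and 25 of the 39 share exon bases with another annotated gene, 9 of them with another HOX gene and 19 with a gene on the opposite strand. The strand setting of the counting is not given in the sources used here, so reads of a HOX gene and of its antisense partner cannot be told apart.

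Start-site windows of the genes on which the results turn are shown to place HOXA10 beside its neighbours HOXA9, HOXA11 and HOXA7, and to show the window that HOXC4 and HOXC5 have in common. Each runs from 250 bases before to 50 bases after a start annotated by RefSeq on GRCh38.p14, written 5′ to 3′ on the gene's own strand, with matches to the motifs searched in capitals.
HOXA10 (chr7:27179812-27180111, minus strand): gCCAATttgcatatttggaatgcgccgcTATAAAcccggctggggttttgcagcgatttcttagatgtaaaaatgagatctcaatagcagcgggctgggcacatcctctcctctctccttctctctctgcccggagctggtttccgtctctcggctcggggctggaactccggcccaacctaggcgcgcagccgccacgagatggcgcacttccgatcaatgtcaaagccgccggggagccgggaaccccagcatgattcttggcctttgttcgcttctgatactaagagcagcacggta
HOXA10, second start (chr7:27174271-27174570, minus strand): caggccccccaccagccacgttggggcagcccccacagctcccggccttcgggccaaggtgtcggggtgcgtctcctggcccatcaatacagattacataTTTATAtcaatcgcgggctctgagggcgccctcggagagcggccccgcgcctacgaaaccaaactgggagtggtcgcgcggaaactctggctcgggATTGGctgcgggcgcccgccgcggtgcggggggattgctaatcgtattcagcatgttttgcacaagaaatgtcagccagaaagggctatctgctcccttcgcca
HOXA9 (chr7:27165488-27165787, minus strand): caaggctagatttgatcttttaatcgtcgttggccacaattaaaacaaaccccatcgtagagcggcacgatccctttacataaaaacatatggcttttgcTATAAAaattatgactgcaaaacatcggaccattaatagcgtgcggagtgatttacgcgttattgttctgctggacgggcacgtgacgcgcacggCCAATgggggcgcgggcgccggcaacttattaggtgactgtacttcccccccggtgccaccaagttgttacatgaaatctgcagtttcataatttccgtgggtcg
HOXA11 (chr7:27185183-27185482, minus strand): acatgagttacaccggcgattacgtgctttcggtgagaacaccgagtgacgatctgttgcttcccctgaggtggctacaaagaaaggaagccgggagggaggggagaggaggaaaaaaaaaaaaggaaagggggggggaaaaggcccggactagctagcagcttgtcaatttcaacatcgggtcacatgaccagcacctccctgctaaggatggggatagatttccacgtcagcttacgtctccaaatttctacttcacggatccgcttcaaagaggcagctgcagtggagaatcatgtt
HOXA7 (chr7:27156626-27156925, minus strand): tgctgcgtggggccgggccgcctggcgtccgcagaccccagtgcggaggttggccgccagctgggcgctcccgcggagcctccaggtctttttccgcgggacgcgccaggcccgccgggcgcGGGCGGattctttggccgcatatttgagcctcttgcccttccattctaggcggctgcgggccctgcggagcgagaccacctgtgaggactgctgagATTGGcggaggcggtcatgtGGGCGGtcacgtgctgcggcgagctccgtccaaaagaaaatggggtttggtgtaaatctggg
HOXC4 and HOXC5 (chr12:54016638-54016937, plus strand): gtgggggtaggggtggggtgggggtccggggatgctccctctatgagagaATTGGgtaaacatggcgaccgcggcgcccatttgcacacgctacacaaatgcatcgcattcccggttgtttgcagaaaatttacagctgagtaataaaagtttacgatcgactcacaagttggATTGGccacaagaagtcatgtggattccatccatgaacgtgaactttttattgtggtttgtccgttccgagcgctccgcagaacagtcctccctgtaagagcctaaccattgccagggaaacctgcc

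RefSeq windows were found for 20 of the HOX genes, 26 distinct windows in all. They were spread unevenly, and HOXA3 had the most. HOXB was represented by HOXB1 alone, and HOXC by the window that HOXC4 and HOXC5 have in common. HOXB2, HOXB9, HOXB13, HOXC6 and HOXD9 had no window, so the shares below do not cover them. The motifs were searched on both strands in these and in all 34943 windows of the same length, and motifs may overlap one another. The CCAAT box (CCAAT) was present in 17 of the 26 HOX windows (65.4%) and in 34.6% of all windows. The TATA box (TATAAA) was in 5 HOX windows (19.2%), against 11.6% of all windows, and the GC box (GGGCGG) in 13 of 26, against 44.9%. A HOX-PBX site (TGATTNAT) was in 2 HOX windows, those of HOXA2 and HOXD11 (7.7%, against 2.8% of all windows). The cAMP response element (TGACGTCA) and the AP-1 site (TGANTCA) were not found in a HOX window; 1.8% and 7.7% of all windows hold them. Both HOXA10 windows and that of HOXA9 hold 1 TATA box and 1 CCAAT box, HOXA7 holds 1 CCAAT box and 2 GC boxes, the HOXC4 window holds 2 CCAAT boxes, and the HOXA11 window holds none of the motifs. HOX windows had a median of 22.5 CpG pairs, against 14.0 over all windows. These are counts of letters in fixed windows and say nothing of factor binding.

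The targeted gene was examined first, because the sample titles name EP300 while another label field gives MLF1 as the siRNA target. EP300 stood at 30.1, 26.9 and 26.5 CPM (counts scaled to a fixed library total, after TMM scaling) in siEP300.H2O2, against 59.9, 80.4 and 89.9 CPM in siNC.H2O2. It stood at 36.3, 36.8 and 36.7 CPM in siEP300, against 101, 69.1 and 80.2 CPM in siNC. The EP300 siRNA libraries lay below all control siRNA libraries in both settings, with 36.3% of the transcript left with H2O2 and 43.9% without. MLF1 differed by much less, with log2 fold changes of -0.29 ± 0.06 with H2O2 and -0.22 ± 0.06 without (SE, edgeR adjusted p = 0.00069 and 0.0052). Library totals ran from 16081437 to 19033679 counts. The control siRNA libraries siNC.H2O2 7 and siNC 1 lay farthest apart along the main axis of variation within groups, and without both of them 1 HOX gene was higher with EP300 siRNA in H2O2-treated cells in place of the 2 given below. Of 13 cardiomyocyte markers among the symbols, 5 passed the filter on low counts; the myosin genes MYH6, MYH7, MYL2 and MYL7 and the troponin gene TNNT2 were among those that did not. All 10 fibroblast markers passed, with summed levels of 9987 to 12590 CPM over the 12 libraries.

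Of the 39 HOX genes 30 passed the filter that retained 13171 genes for testing: 10 of 11 in HOXA, 9 of 10 in HOXB, 6 of 9 in HOXC and 5 of 9 in HOXD. The other 9, HOXA6, HOXB1, HOXC10, HOXC12, HOXC13, HOXD1, HOXD3, HOXD12 and HOXD13, had between 0 and 10 counts in any library and were not tested. HOX transcripts were scarce in these cells. Over the 12 libraries the 30 genes had mean levels of 0.678 to 29.8 CPM with a median of 5.01 CPM, against a median of 32.9 CPM over all genes tested. In bulk RNA, fewer cells expressing a gene and less RNA per cell cannot be told apart.

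On the length-scaled FPKM scale, HOXB2, a hindbrain-patterning gene, had the highest level of the HOX genes in every group. Its mean was 28.6 ± 3.46 FPKM in siEP300.H2O2, 31.2 ± 4.79 in siNC.H2O2, 27.8 ± 0.66 in siEP300 and 29.1 ± 2.15 in siNC (SD, n = 3). In siNC it was followed by HOXA10 (16.5 ± 0.77), HOXB7 (15.4 ± 1.75), HOXA9 (11.1 ± 0.38) and HOXA7 (10.8 ± 0.83), and neither HOXA10 and HOXB7 nor HOXA9 and HOXA7 differed beyond their spread. In each group the highest mean was that of HOXC8 or HOXC6 in the HOXC cluster and of HOXD8 or HOXD10 in the HOXD cluster. HOXA10 changed place between groups. It ranked 14 by mean FPKM in siEP300.H2O2 (3.28 ± 0.39), 3 in siNC.H2O2 (11.2 ± 0.43), 11 in siEP300 (3.93 ± 0.41) and 2 in siNC.

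**Figure D1:**
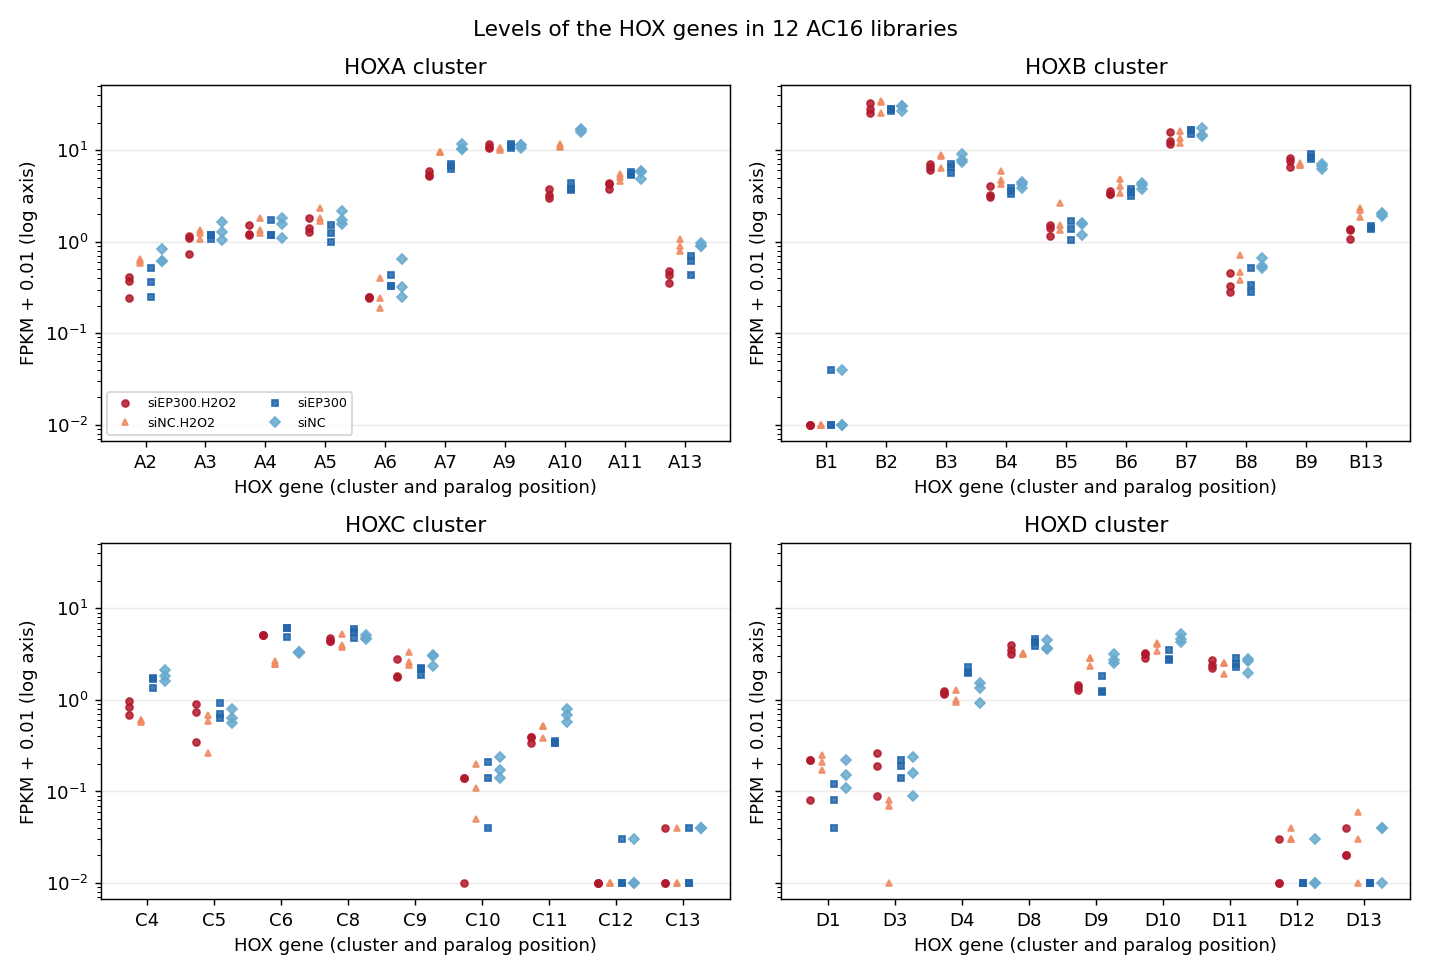
FPKM of 38 HOX genes in each library, by cluster and paralog position, on a log axis with 0.01 added; symbols mark the 4 groups in the order siEP300.H2O2, siNC.H2O2, siEP300 and siNC, with 3 libraries each. HOXB2 is highest, with group means of 27.8 to 31.2 FPKM, and the HOXA10 libraries given EP300 siRNA lie apart from those given control siRNA.

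The effect of EP300 siRNA on the HOX genes was first examined without H2O2. HOXA10, a posterior HOX gene needed for patterning of the uterus and limb, fell furthest, and HOXC6, HOXB9 and HOXD4 were among those that rose. The falls also took in HOXA7, HOXA13, HOXB13, HOXD9, HOXD10, HOXC11 and HOXA2. In all, 4 of the 30 genes rose and 8 fell at an edgeR adjusted p under 0.05, where 61.5% of all genes tested were called, 30.1% higher and 31.4% lower. The 40.0% of HOX genes called lay below the share of all genes, and 1 of the 30 was called with a change of at least 2-fold, against 9.87% of all genes. The HOX genes tested had a median level of 5.01 CPM, against 32.9 CPM over all genes tested. Changes are harder to call at low levels, and no share given here or below was matched for level. The median log2 fold change was -0.10 over the HOX genes and -0.0042 over all genes. The libraries of the pair of groups did not overlap for 46.7% of the HOX genes tested, against 68.1% of all genes tested. The split between directions depended on the treatment of GC content and transcript length: with offsets that remove each library's trend on both, 10 HOX genes were higher and 6 lower.

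HOXA10 (ENSG00000253293, chromosome 7, 27170591 to 27180261) stood at 9.88, 8.05 and 8.50 CPM in siEP300, against 33.4, 36.2 and 36.8 CPM in siNC. The groups were far apart, and 24.9% of the level was left. HOXA10 changed by -2.01 ± 0.09 on the log2 scale (SE, edgeR adjusted p = 1.8e-10), rank 171 from the lowest of 13171 genes. Its share of all HOX counts was 3.61% to 4.35% in siEP300, against 13.1% to 14.6% in siNC. The genes on either side did not follow. HOXA9, whose annotated span overlaps that of HOXA10 and which is known for its role in blood progenitors, stood at 20.5, 19.5 and 18.8 CPM in siEP300, against 18.95, 19.3 and 18.02 CPM in siNC. HOXA11, a limb and uterus gene, stood at 12.6, 13.5 and 13.1 CPM in siEP300, against 13.1, 13.6 and 10.9 CPM in siNC. Both pairs of groups overlapped, with log2 fold changes of 0.06 ± 0.07 for HOXA9 and 0.06 ± 0.10 for HOXA11 (edgeR adjusted p = 0.45 and 0.65).

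Elsewhere in HOXA, HOXA7 (chromosome 7, 27153716 to 27157936) stood at 12.2, 11.4 and 10.6 CPM in siEP300, against 19.3, 17.1 and 17.1 CPM in siNC, or -0.65 ± 0.08 on the log2 scale (edgeR adjusted p = 8.9e-06). Of its exon bases 62.5% are shared with the opposite-strand HOXA-AS3. HOXA13, the most posterior gene of the cluster, with roles in the digits and genital tract, stood at 1.97, 2.83 and 3.27 CPM in siEP300, against 4.33, 4.01 and 4.03 CPM in siNC (-0.62 ± 0.18, edgeR adjusted p = 0.0079). The siEP300 libraries of both genes lay below those of siNC. HOXA2 fell at a level near 1 CPM or below, with 0.328 to 0.680 CPM in siEP300, against 0.792 to 1.09 CPM in siNC (-0.84 ± 0.30, edgeR adjusted p = 0.024). Without siNC library 2 its log2 fold change was -0.66 (edgeR adjusted p = 0.12), without siEP300 library 4 -0.60 (0.14) and without siEP300 library 6 -0.82 (0.063). The call was lost in 5 of the 20 alternatives described at the end.

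**Figure D2:**
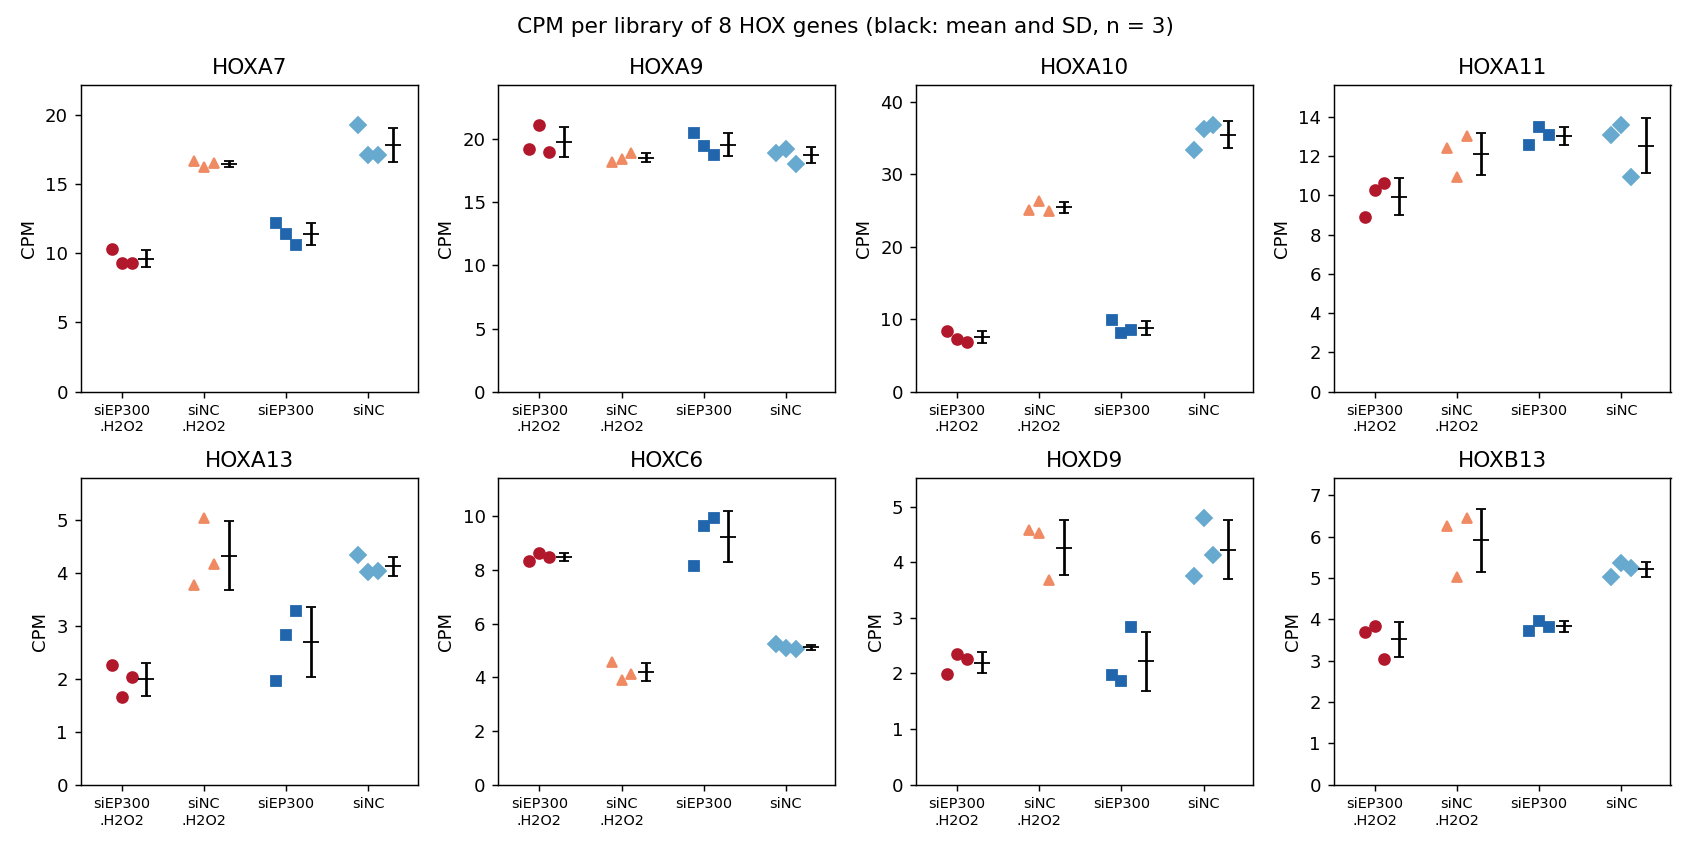
CPM per library of 8 HOX genes, each panel with its own axis from 0, groups in the order siEP300.H2O2, siNC.H2O2, siEP300 and siNC; black marks give the mean and SD of 3 libraries. HOXA10 libraries given EP300 siRNA lie between 6.84 and 9.88 CPM, against 24.9 to 36.8 CPM with control siRNA, while HOXA9 lies between 18.02 and 21.2 CPM in every library.

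In HOXB, HOXB9, a thoracic-level gene, stood at 18.3, 20.4 and 19.02 CPM in siEP300, against 14.4, 13.5 and 15.5 CPM in siNC. It rose by 0.41 ± 0.09 on the log2 scale (edgeR adjusted p = 0.00093), with no overlap between the groups. HOXB13, known from prostate and tail development and separated from the rest of its cluster by a wide gap, stood at 3.71, 3.97 and 3.82 CPM in siEP300, against 5.02, 5.36 and 5.25 CPM in siNC. On the log2 scale it changed by -0.44 ± 0.13 (edgeR adjusted p = 0.0087), and -0.20 (edgeR adjusted p = 0.18) with GC and length offsets. HOXB2, the most abundant member, did not pass the test (-0.05 ± 0.11, edgeR adjusted p = 0.68), but with those offsets it was higher in siEP300, by 0.22 (edgeR adjusted p = 0.0093).

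In HOXC and HOXD, the middle gene HOXC6 stood at 8.14, 9.63 and 9.92 CPM in siEP300, against 5.23, 5.10 and 5.04 CPM in siNC, the largest rise among the HOX genes tested (log2 fold change 0.85 ± 0.10, edgeR adjusted p = 6e-06). HOXC11, a hindlimb-level gene, stood at 0.983, 0.963 and 1.04 CPM in siEP300, against 1.58, 2.24 and 1.91 CPM in siNC (-0.94 ± 0.20, edgeR adjusted p = 0.0011). The groups of HOXC6 and HOXC11 were apart. The HOXC6 value rests on how reads were divided with HOXC4, as described below, and the sum of HOXC4 and HOXC6 rose by 0.55 ± 0.09. HOXD9, active in limb and gut mesoderm, stood at 1.97, 1.87 and 2.83 CPM in siEP300, against 3.75, 4.79 and 4.14 CPM in siNC (-0.92 ± 0.17, edgeR adjusted p = 0.00034). Its neighbour HOXD10, a limb motor neuron gene, stood at 5.24, 3.97 and 4.09 CPM in siEP300, against 7.34, 6.56 and 6.15 CPM in siNC (-0.59 ± 0.13, edgeR adjusted p = 0.0013). The siEP300 libraries of HOXD9 and HOXD10 lay below every siNC library. HOXD4, a gene of the hindbrain level, stood at 5.08, 5.21 and 5.40 CPM in siEP300, against 4.38, 4.17 and 3.61 CPM in siNC. It rose by 0.37 ± 0.13 (edgeR adjusted p = 0.023), with 0.29 (edgeR adjusted p = 0.097) without siNC library 3 and 0.35 (edgeR adjusted p = 0.064) without siEP300 library 6. The HOXD4 rise lost its call in 3 of the 20 alternatives. Of the HOXD4 exon bases, 80.5% are shared with AC009336.2, annotated as protein-coding on the same strand.

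EP300 siRNA was then compared with control siRNA under H2O2. HOXA10, HOXA7, HOXA13, HOXB13, HOXD9 and HOXA2 were again lower with EP300 siRNA, HOXB4, HOXB3 and HOXA11 also fell, and HOXC6 was again higher. In all, 2 of the 30 genes rose and 9 fell, where 59.0% of all genes tested were called, 28.4% higher and 30.6% lower. The share of HOX genes called was 36.7%, and 3 of the 30 changed at least 2-fold, against 9.42% of all genes. HOXC6 was among these 3 with a log2 fold change of 1.01, which rests on how reads were divided with HOXC4. The median log2 fold change was -0.29 over the HOX genes and -0.019 over all genes. Groups did not overlap for 46.7% of the HOX genes tested, against 61.7% of all genes tested. With GC and length offsets 7 HOX genes were higher and 6 lower.

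HOXA10 stood at 8.39, 7.32 and 6.84 CPM in siEP300.H2O2, against 25, 26.3 and 24.9 CPM in siNC.H2O2, and 29.6% of the level was left. The libraries of the pair of groups did not overlap, and the change was -1.76 ± 0.09 (edgeR adjusted p = 1e-09), rank 238 from the lowest of 13171. HOXA9 stood at 19.2, 21.2 and 18.97 CPM in siEP300.H2O2, against 18.2, 18.5 and 18.9 CPM in siNC.H2O2 (0.09 ± 0.07, edgeR adjusted p = 0.28). Its groups did not overlap either, though it was not called. HOXA11 stood at 8.89, 10.3 and 10.6 CPM in siEP300.H2O2, against 12.4, 10.9 and 13.01 CPM in siNC.H2O2 (-0.29 ± 0.11, edgeR adjusted p = 0.029). The HOXA11 call ended without siNC.H2O2 library 7 (-0.27, edgeR adjusted p = 0.069), without siNC.H2O2 library 9 (-0.23, 0.11), without siEP300.H2O2 library 10 (-0.21, 0.13), without both siNC.H2O2 library 7 and siNC library 1 (-0.28, 0.056) and with GC and length offsets (-0.11, 0.36).

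HOXA7 stood at 10.3, 9.26 and 9.26 CPM in siEP300.H2O2, against 16.7, 16.2 and 16.5 CPM in siNC.H2O2 (-0.78 ± 0.09, edgeR adjusted p = 2.1e-06). HOXA13 stood at 2.26, 1.66 and 2.04 CPM in siEP300.H2O2, against 3.77, 5.03 and 4.17 CPM in siNC.H2O2 (-1.11 ± 0.19, edgeR adjusted p = 0.00014). Both genes had all siEP300.H2O2 libraries below all siNC.H2O2 libraries. HOXA2 (-0.86 ± 0.31, edgeR adjusted p = 0.027) stood at 0.331 to 0.552 CPM in siEP300.H2O2, against 0.813 to 0.880 CPM in siNC.H2O2. Its call ended without siNC.H2O2 library 7 (-0.85, edgeR adjusted p = 0.062), siNC.H2O2 library 8 (-0.84, 0.062) or siEP300.H2O2 library 12 (-0.66, 0.13), and without both siNC.H2O2 library 7 and siNC library 1 (-0.85, 0.064). The HOXA2 call was lost in 6 of the 20 alternatives.

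In HOXB, HOXB13 stood at 3.70, 3.83 and 3.03 CPM in siEP300.H2O2, against 6.25, 5.03 and 6.45 CPM in siNC.H2O2 (-0.75 ± 0.13, edgeR adjusted p = 0.00018). HOXB4, known for its action in blood stem cells, stood at 5.30, 6.97 and 5.68 CPM in siEP300.H2O2, against 7.43, 7.98 and 10.2 CPM in siNC.H2O2 (-0.52 ± 0.14, edgeR adjusted p = 0.0047). For both genes the groups were apart. HOXB3, which shares exon bases with HOXB4, stood at 21.1, 18.6 and 17.9 CPM in siEP300.H2O2, against 19.6, 26.3 and 25.3 CPM in siNC.H2O2, and the groups overlapped (-0.30 ± 0.11, edgeR adjusted p = 0.031). The HOXB3 call was lost in 8 of the 20 alternatives. Among these it ended without siNC.H2O2 library 8 (-0.22, edgeR adjusted p = 0.15) or 9 (-0.25, 0.10) and without siEP300.H2O2 library 11 (-0.28, 0.089) or 12 (-0.25, 0.12). HOXB9, higher without H2O2, stood at 18.8, 17.8 and 15.3 CPM in siEP300.H2O2, against 16.2, 15.9 and 16.8 CPM in siNC.H2O2 (0.09 ± 0.09, edgeR adjusted p = 0.41).

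In HOXC and HOXD, HOXC6 stood at 8.33, 8.63 and 8.49 CPM in siEP300.H2O2, against 4.58, 3.90 and 4.12 CPM in siNC.H2O2 (1.01 ± 0.11, edgeR adjusted p = 1.8e-06). HOXD9 stood at 1.99, 2.34 and 2.26 CPM in siEP300.H2O2, against 4.58, 4.53 and 3.69 CPM in siNC.H2O2 (-0.95 ± 0.18, edgeR adjusted p = 0.0003). Neither gene's groups overlapped. The HOXC6 value again rests on how reads were divided with HOXC4, and the sum of HOXC4 and HOXC6 gave 0.92 ± 0.09. Short of the threshold were HOXD10 at -0.30 ± 0.13 (edgeR adjusted p = 0.069), HOXC11 at -0.33 ± 0.22 (0.25) and HOXD4 at 0.27 ± 0.14 (0.11). HOXD10 stood at 4.86, 4.34 and 4.91 CPM in siEP300.H2O2, against 5.17, 6.04 and 6.18 CPM in siNC.H2O2. HOXC4 was also short of it at 0.50 ± 0.21 (edgeR adjusted p = 0.072), though its groups did not overlap. Without H2O2, HOXC4 gave -0.17 ± 0.15 (edgeR adjusted p = 0.37). Both HOXC4 values rest on how reads were divided with HOXC6.

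**Figure D3:**
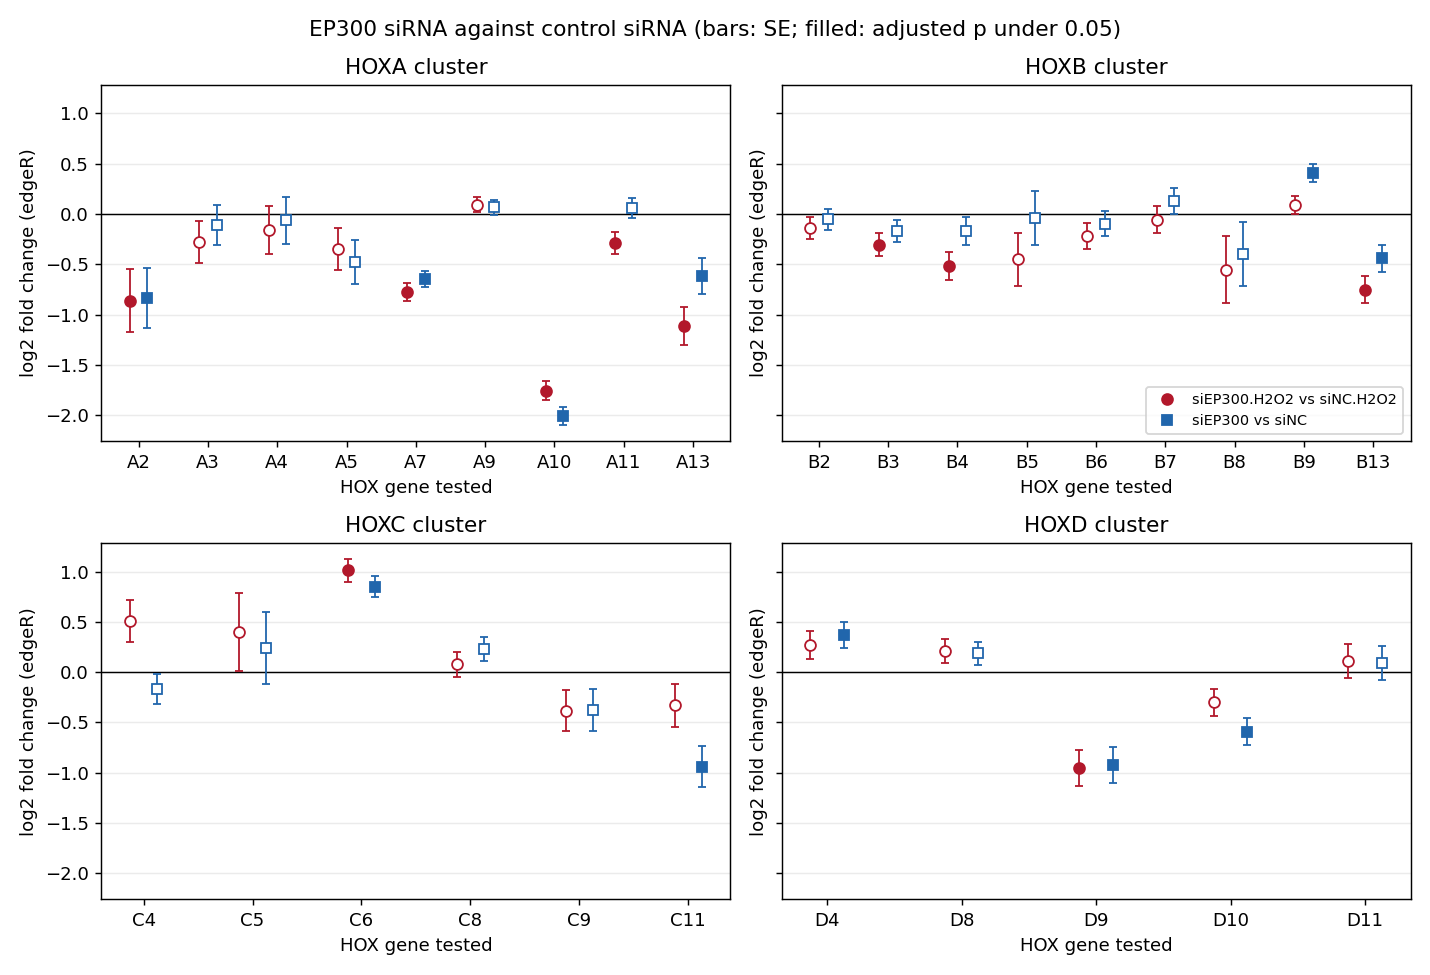
Log2 fold changes of 29 of the 30 HOX genes tested, EP300 siRNA against control siRNA, with H2O2 (red circles) and without (blue squares); bars are standard errors of the edgeR fit and filled symbols mark an adjusted p under 0.05. HOXA10 lies at -1.76 and -2.01 between HOXA9 and HOXA11, whose values lie between -0.29 and 0.09, and HOXC6 lies at 1.01 and 0.85.

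The comparisons with and without H2O2 share no library. Of the 11 HOX genes called with H2O2 and the 12 called without, 8 were called in both and in the same direction (72.7% and 66.7%), and 0 in opposite directions; over all genes these shares were 82.1% and 78.8%. The fold changes had the same sign in 27 of the 30 genes, with a Pearson correlation of 0.88 across genes (0.83 without HOXA10) and a Spearman correlation of 0.86, as a description, since genes are not independent replicates. Over all genes tested the sign was the same in 11368 of 13171, and the Pearson and Spearman values were 0.85 and 0.87, close to the HOX values. A difference between the effects was tested as the interaction of EP300 siRNA and H2O2, and 0 of the 30 HOX genes were called by edgeR, where 3.33% of all genes were, 1.12% higher and 2.21% lower. The number of all genes called for the interaction, 148 higher and 291 lower, varied widely: it was 767 and 1229 without both siNC.H2O2 library 7 and siNC library 1, 405 and 627 with GC and length offsets, and 59 and 137 without siEP300 library 4. DESeq2 and limma also called 0 of the HOX genes for the interaction. At an unadjusted p under 0.05 edgeR gave 3: HOXA11 (interaction -0.35 ± 0.15, edgeR adjusted p = 0.24), HOXB9 (-0.32 ± 0.12, 0.19) and HOXC4 (0.67 ± 0.26, 0.21). HOXA10 had an interaction of 0.25 ± 0.13 (edgeR adjusted p = 0.36).

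The counts by cluster and position stand against 28.4% of all genes higher and 30.6% lower with H2O2, and 30.1% and 31.4% without, and no difference from these shares was tested. By cluster, the HOXA genes held 1 rise and 5 falls among 10 with H2O2, and 1 rise and 4 falls without. HOXB held 0 rises and 3 falls among 9 with H2O2 and 1 of each without, HOXC 1 rise and 0 falls among 6 with H2O2 and 1 of each without, and HOXD 0 rises and 1 fall among 5 with H2O2 and 1 rise and 2 falls without. By place along the clusters, positions 9 to 13 held 0 rises and 5 falls among 11 genes with H2O2, and 1 rise and 6 falls without. Positions 4 to 8 held 1 rise and 2 falls among 14 with H2O2, and 2 rises and 1 fall without. Positions 1 to 3 held 1 rise and 2 falls among 5 with H2O2, and 1 of each without. Across the 30 genes the log2 fold change had a Spearman correlation with paralog position of -0.29 with H2O2 and -0.26 without, a weak relation given as a description.

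Paralogs at the same position were called alike at some positions and not at others. At position 9, HOXD9 fell with and without H2O2 and HOXB9 rose without it, while HOXA9 stayed within 18.02 to 21.2 CPM in all libraries. HOXC9 at the same position had log2 fold changes of -0.39 ± 0.20 with H2O2 and -0.38 ± 0.20 without (edgeR adjusted p = 0.12 in both). At position 10, HOXA10 and HOXD10 both fell without H2O2. At position 13, both genes tested, HOXA13 and HOXB13, fell in both comparisons. At position 4, HOXD4 gave 0.27 ± 0.14 with H2O2 and 0.37 ± 0.13 without, and was called only without. HOXB4 gave -0.52 ± 0.14 with H2O2 and -0.17 ± 0.14 without, and was called only with H2O2. The interaction was called for neither gene (edgeR adjusted p = 0.86 for HOXD4 and 0.41 for HOXB4).

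The 14 genes called in none of the 5 comparisons were HOXA3, HOXA4, HOXA5, HOXA9, HOXB2, HOXB5, HOXB6, HOXB7, HOXB8, HOXC5, HOXC8, HOXC9, HOXD8 and HOXD11. Their mean levels ran from 0.835 to 29.8 CPM. Their log2 fold changes with EP300 siRNA ran from -0.56 to 0.40 with H2O2 and from -0.48 to 0.24 without. Summed over all HOX genes, levels were 202 to 220 CPM in siEP300.H2O2, against 242 to 252 CPM in siNC.H2O2. They were 223 to 227 CPM in siEP300, against 251 to 261 CPM in siNC. These sums include HOXA10 and so are not a measure of the other HOX genes. HOXA10 averaged 7.51 CPM in siEP300.H2O2, against 25.4 in siNC.H2O2, and 8.81 in siEP300, against 35.45 in siNC.

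HOXC4 and HOXC6 needed separate treatment, because the deposited counts divide reads between them. They were the only HOX genes with counts that were not whole, in all 12 libraries, and their sum was whole in every library within 0.005 counts. GENCODE v29 gives them 484 exon bases in common, 17.8% of the exon bases of HOXC4 and 13.7% of those of HOXC6, and both also share 305 with HOXC5. The sum stood at 10.0, 10.0 and 9.76 CPM in siEP300.H2O2, against 5.50, 5.03 and 5.15 CPM in siNC.H2O2. It stood at 10.98, 12.1 and 12.7 CPM in siEP300, against 7.97, 8.44 and 7.95 CPM in siNC. With EP300 siRNA the sum was therefore higher in both settings, by 0.92 ± 0.09 with H2O2 and 0.55 ± 0.09 without on the log2 scale (edgeR adjusted p = 8.9e-07 and 5.9e-05). HOXC4 was assigned 13.1% to 16.8% of the sum in siEP300.H2O2, 16.9% to 22.0% in siNC.H2O2, 20.3% to 26.0% in siEP300 and 34.2% to 39.2% in siNC.

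**Figure D4:**
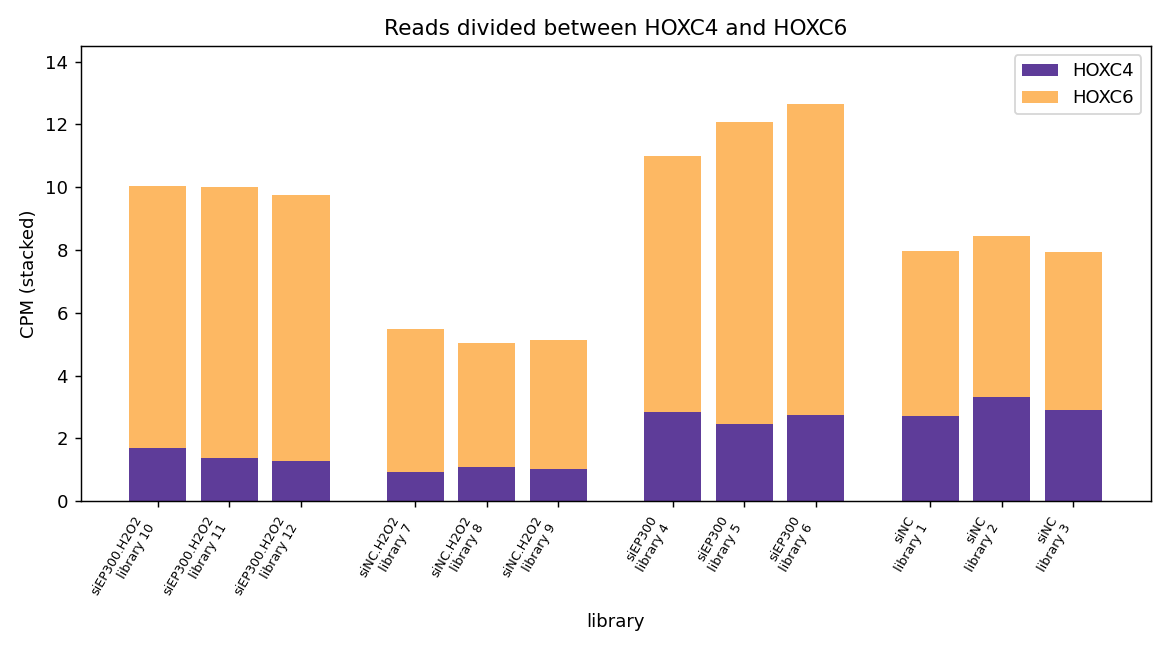
Stacked CPM of HOXC4 (purple) and HOXC6 (orange) in each of the 12 libraries, whose counts are whole only when added. The summed bar is higher with EP300 siRNA, at 9.76 to 12.7 CPM, than with control siRNA, at 5.03 to 8.44 CPM, and the HOXC4 part is smallest in the H2O2 libraries.

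The response of the HOX genes to H2O2 was examined under control siRNA. HOXC4 and HOXA10 fell; of the 30 HOX genes 1 was higher and 2 were lower, where 35.3% of all genes tested were called, 17.8% higher and 17.4% lower. HOXC4 stood at 0.916, 1.13 and 1.03 CPM in siNC.H2O2, against 2.75, 3.33 and 2.92 CPM in siNC. The groups were apart, and HOXC4 changed by -1.55 ± 0.18 on the log2 scale (edgeR adjusted p = 1.4e-05), a value that rests on how reads were divided with HOXC6. The sum of HOXC4 and HOXC6 fell by less, at -0.63 ± 0.10 (edgeR adjusted p = 0.00014), and HOXC6 alone gave -0.28 ± 0.12 (edgeR adjusted p = 0.074). HOXA10 stood at 25, 26.3 and 24.9 CPM in siNC.H2O2, against 33.4, 36.2 and 36.8 CPM in siNC (-0.48 ± 0.08, edgeR adjusted p = 0.0003). Without siNC.H2O2 library 8, 0 HOX genes were higher; without siNC.H2O2 library 7 or library 9, 2 were, and without both siNC.H2O2 library 7 and siNC library 1, 3 were. The number lower was 5 with limma on log2(FPKM + 1) and 4 on log2(FPKM + 0.1). Groups did not overlap for 30% of the HOX genes tested, against 41.7% of all genes tested.

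The response to H2O2 was also examined under EP300 siRNA. HOXC4, HOXA11 and HOXD4 fell and 0 HOX genes rose, 3 of 30 called, where 31.1% of all genes were called, 15.9% higher and 15.1% lower. With GC and length offsets 5 HOX genes were lower. HOXC4 stood at 1.71, 1.37 and 1.27 CPM in siEP300.H2O2, against 2.84, 2.44 and 2.73 CPM in siEP300 (-0.88 ± 0.17, edgeR adjusted p = 0.0015), and its sum with HOXC6 gave -0.26 ± 0.08 (edgeR adjusted p = 0.030). HOXA11 stood at 8.89, 10.3 and 10.6 CPM in siEP300.H2O2, against 12.6, 13.5 and 13.1 CPM in siEP300 (-0.39 ± 0.10, edgeR adjusted p = 0.011). HOXD4 stood at 3.92, 3.83 and 4.25 CPM in siEP300.H2O2, against 5.08, 5.21 and 5.40 CPM in siEP300 (-0.39 ± 0.13, edgeR adjusted p = 0.036). In each of these genes the siEP300.H2O2 libraries were below the siEP300 libraries. Groups did not overlap for 13.3% of the HOX genes tested, against 49.9% of all genes tested. The HOXD4 call ended when any of the 6 libraries of the comparison was left out, with log2 fold changes of -0.43 to -0.36 and adjusted p of 0.052 to 0.11. It was lost in 7 of the 20 alternatives. HOXA10 gave -0.23 ± 0.10 (edgeR adjusted p = 0.11), which became -0.32 (edgeR adjusted p = 0.045) without siEP300.H2O2 library 10. Under either siRNA 10% of the HOX genes were called.

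**Figure D5:**
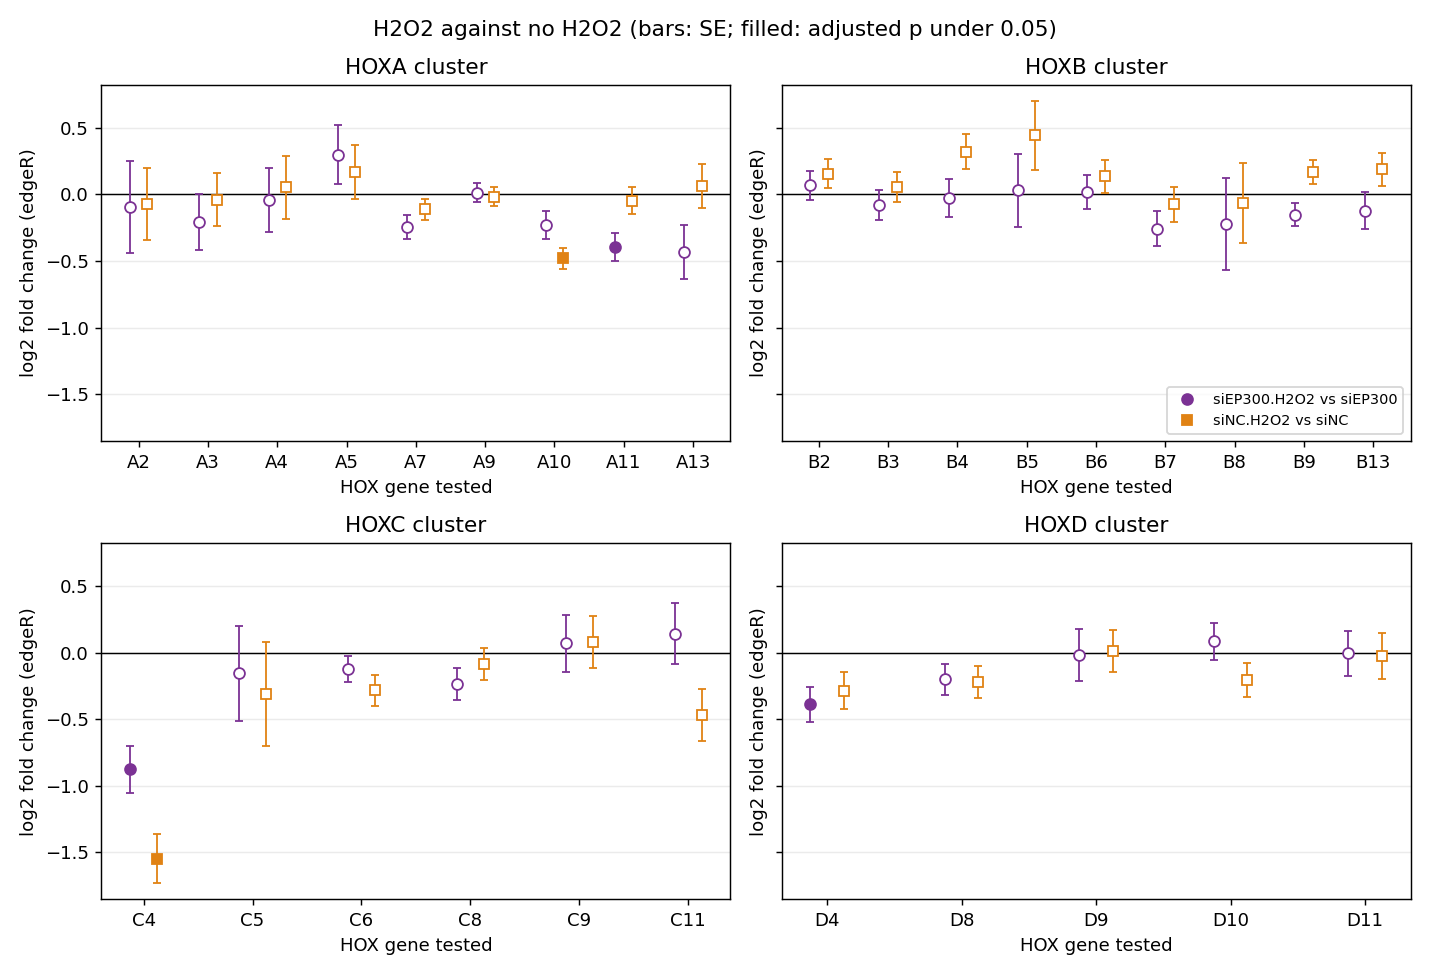
Log2 fold changes of 29 of the 30 HOX genes tested, H2O2 against no H2O2, in cells with EP300 siRNA (purple circles) and with control siRNA (orange squares); bars are standard errors and filled symbols mark an adjusted p under 0.05. HOXC4 has the lowest values, -0.88 and -1.55, and HOXA10 lies at -0.23 and -0.48.

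Factors that work with or on HOX genes were followed as lists with EP300 siRNA, where 59.0% of all genes were called with H2O2 and 61.5% without. Of 11 TALE cofactors, the homeodomain partners that bind DNA with HOX proteins, 1 rose and 5 fell with H2O2, and 2 rose and 5 fell without, near those shares. MEIS2, which binds with PBX proteins, fell by 0.52 on the log2 scale with H2O2 and by 0.48 without (edgeR adjusted p = 7.2e-06 and 1.1e-05). The repressor TGIF1 fell by 0.42 with H2O2 (edgeR adjusted p = 3.1e-05) and gave 0.02 without (edgeR adjusted p = 0.75), and TGIF2 fell by 0.33 without H2O2 (edgeR adjusted p = 0.00059) and gave -0.15 with it (edgeR adjusted p = 0.061). The TALE list's median log2 fold change was -0.15 with H2O2 and -0.03 without.

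Trithorax and MLL complex genes, which maintain HOX expression through histone H3 methylation, had 5 of 14 higher and 5 lower in each comparison, where all genes had 28.4% higher and 30.6% lower with H2O2 and 30.1% and 31.4% without. The core subunits WDR5 (-0.35 ± 0.06 with H2O2 and -0.66 ± 0.06 without) and ASH2L (-0.36 ± 0.06 and -0.29 ± 0.06) fell and their partner RBBP5 rose (0.51 ± 0.09 and 0.44 ± 0.09), with edgeR adjusted p of at most 0.00073 in each case. KDM6B, a demethylase of the Polycomb mark, rose by 0.63 ± 0.08 with H2O2 and 0.39 ± 0.08 without (edgeR adjusted p = 9.2e-06 and 0.00067). Of 30 Polycomb genes, which keep HOX genes silent, 9 rose and 7 fell with H2O2, and 8 rose and 7 fell without. Over all genes 59.0% were called with H2O2 and 61.5% without, and no difference from these shares was tested. CBX2, a subunit whose loss shifts the axial skeleton in mice, averaged 2.87 ± 0.20 CPM in siEP300.H2O2, against 6.45 ± 1.10 in siNC.H2O2, and 3.05 ± 0.29 in siEP300, against 10.5 ± 0.85 in siNC (-1.17 ± 0.15 and -1.78 ± 0.14, edgeR adjusted p = 7.3e-06 and 4.4e-08). The deubiquitinase BAP1 (-0.89 and -0.91), the methyltransferase EZH1 (-0.68 and -0.70) and PCGF3 (-0.55 and -0.68) fell with and without H2O2, with edgeR adjusted p of at most 8.9e-06.

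Retinoic acid, the signal that switches on anterior HOX genes in the embryo, was represented by 13 tested genes, of which 4 rose and 3 fell with H2O2 and 4 rose and 4 fell without, near the share of all genes called. ALDH1A3, an enzyme that makes retinoic acid, averaged 6.33 ± 1.54 CPM in siEP300.H2O2, against 37.8 ± 3.02 in siNC.H2O2, and 5.04 ± 0.74 in siEP300, against 28.3 ± 1.16 in siNC (-2.57 ± 0.13 and -2.49 ± 0.13, edgeR adjusted p = 4.9e-10 and 1.2e-09). Its relative ALDH1A2 rose (0.53 ± 0.08 and 0.49 ± 0.07), the receptor RARG rose (0.24 ± 0.06 and 0.34 ± 0.06) and the receptor partner RXRA fell (-0.57 ± 0.08 and -0.90 ± 0.08), with edgeR adjusted p of at most 0.0028 throughout. Of the CDX and EVX homeobox genes, 0 of the 3 symbols in the table passed the filter. No symbol of the 15 HOX noncoding transcripts searched was in the table.

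Genes that lie beside the HOX clusters were called in both directions: of 21 tested, 11 rose and 4 fell with H2O2, and 9 rose and 4 fell without, where all genes had 28.4% higher and 30.6% lower with H2O2 and 30.1% and 31.4% without. Their median log2 fold change was 0.20 with H2O2 and 0.15 without, against -0.29 and -0.10 over the HOX genes. NFE2L1, a stress-response factor beside HOXB, rose (0.85 ± 0.05 with H2O2 and 0.90 ± 0.05 without), while CBX5, a heterochromatin protein beside HOXC (-1.13 ± 0.10 and -1.22 ± 0.10), NFE2 (-1.37 ± 0.20 and -1.54 ± 0.16) and HNRNPA3, an RNA-binding protein beside HOXD (-0.46 ± 0.05 and -0.44 ± 0.05), fell. Each of these 4 genes had edgeR adjusted p of at most 3.3e-05. Other developmental transcription factors mostly fell: 16 of 20 tested with H2O2, with 0 higher, and 15 of 20 without, with 1 higher, where 30.6% of all genes were lower with H2O2 and 31.4% without. They included PRRX2 (-1.43 ± 0.12 and -1.01 ± 0.12), DLX1 (-0.73 ± 0.10 and -1.05 ± 0.10), TBX3 (-0.87 ± 0.08 and -0.38 ± 0.08) and IRX3 (-0.76 ± 0.08 and -0.46 ± 0.08), with edgeR adjusted p of at most 0.0011 in each case. IRX3 without H2O2 was not called with GC and length offsets (-0.02, edgeR adjusted p = 0.86). The lists were compared by counts and medians alone, and no test of a difference between lists was run.

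Markers of cell types moved with EP300 siRNA as well. The 13 cardiomyocyte markers in the table summed to 71.5 to 78.4 CPM in siEP300.H2O2, against 114 to 127 CPM in siNC.H2O2. They summed to 69.0 to 71.6 CPM in siEP300, against 101 to 102 CPM in siNC. In siNC the sum held mainly NPPB (41.8 CPM) and GATA6 (41.0 CPM). Of the 5 that were tested, 4 fell in each comparison. Over all genes 28.4% were higher and 30.6% lower with H2O2, and 30.1% and 31.4% without. The 7 endothelial markers in the table summed to 16 to 17.6 CPM in siEP300.H2O2, against 34.7 to 39.5 CPM in siNC.H2O2, and to 19.7 to 21.7 CPM in siEP300, against 37.6 to 44.9 CPM in siNC. Of the 6 tested, 1 rose and 5 fell with H2O2, and 1 rose and 4 fell without. EGFL7 averaged 6.41 CPM in siEP300, against 27.3 in siNC, while TEK averaged 9.29, against 4.02. The 6 smooth muscle markers in the table summed to 708 to 873 CPM in siEP300.H2O2, against 555 to 627 CPM in siNC.H2O2, and to 603 to 614 CPM in siEP300, against 400 to 427 CPM in siNC. The 7 epithelial markers summed to 469 to 546 CPM in siEP300.H2O2, against 605 to 654 CPM in siNC.H2O2, and to 349 to 355 CPM in siEP300, against 397 to 439 CPM in siNC. Fibroblast markers summed to 9987 to 10340 CPM in siEP300.H2O2, against 11060 to 11900 CPM in siNC.H2O2, and to 12140 to 12590 CPM in siEP300, against 10350 to 10960 CPM in siNC. These sums follow the most abundant markers, and single markers differed in direction. Of the 10 tested, 2 rose and 5 fell with H2O2, and 5 rose and 3 fell without. Among the falls without H2O2, DCN averaged 25.9 CPM in siEP300, against 92.1 in siNC. The 4 leukocyte markers in the table summed to 68.2 to 80.8 CPM in siEP300.H2O2, against 52.9 to 54.9 CPM in siNC.H2O2, and to 42.1 to 46.4 CPM in siEP300, against 34.5 to 43.0 CPM in siNC. The table held 13 of the 15 cardiomyocyte markers listed and 4 of the 6 leukocyte markers, and the others have no value here. No listed marker in the table was at 0 in all 12 libraries. The part of the marker shifts in the HOX values was not tested.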

How the data were processed

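RNA-seq values of 12 AC16 libraries (4 groups of 3, from their titles) were used. The authors deposited estimated counts per gene symbol, not scaled between libraries, and FPKM, which is scaled to gene length and library total. HISAT, Bowtie2 and GRCh38.p13 are named, per the submitters' processing notes, with no role or version. The program that counted, its annotation and its use of strand are not stated in the sources used. In each library 12% to 13.8% of the estimated counts were not whole, and all were rounded. Library totals of 16081437 to 19033679 set the precision of low genes.

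With R 4.3.3 and edgeR 4.0.16, genes were filtered with filterByExpr (13171 tested), scaled by TMM and fitted over all 4 groups with the quasi-likelihood test, two-sided, with Benjamini-Hochberg adjustment over all tested genes and calls at an adjusted p under 0.05. CPM are counts scaled to a fixed library total after TMM scaling. Alternatives were DESeq2 1.42.0, limma 3.58.1 on log2(FPKM + 1) and log2(FPKM + 0.1), GC and length offsets (mgcv 1.9.3), other filters and scalings, and leaving out libraries. The fit was run on simulated data with the same spread for every gene and with changes placed only in well-counted genes. That run does not cover genes with few counts, and its outcome is not given here. Values per library were given for called HOX genes whose mean over the libraries reached 1 CPM, and from each list up to 4 called genes with the smallest adjusted p in the EP300 siRNA comparisons were named; HOXA2, HOXA9, HOXB2 and HOXC9 fall outside this rule and were added after their values were seen. The members and lists were chosen with earlier results of these data known. The values of 1 HOX gene and 1 cofactor are not reported here, though both stay in the counts.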

Additional observations from a re-analysis of the deposited data

How the results depend on the processing

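The 29 HOX results called were recomputed under 20 alternatives, 580 values in all, of which 539 kept direction and call, 41 kept direction and lost the call, and 0 reversed; 20 of the 29 were called throughout. The lost calls included those of HOXA2, HOXA11, HOXB3, HOXB13 and HOXD4. With GC and length offsets 10 HOX genes were higher with EP300 siRNA without H2O2 and 7 with H2O2, and 5 were lower with H2O2 under EP300 siRNA; the cause was not tested. With H2O2, the number of HOX genes higher with EP300 siRNA was 1 with DESeq2, 1 without both siNC.H2O2 library 7 and siNC library 1, and 1 to 2 when single libraries were left out. With control siRNA, HOX genes higher with H2O2 numbered 3 without that pair and 0 to 2 when single libraries were left out, and those lower numbered 5 with limma on log2(FPKM + 1) and 4 on log2(FPKM + 0.1). Over all genes the interaction was called higher for 325 genes on log2(FPKM + 1), 265 on log2(FPKM + 0.1), 405 with GC and length offsets, 767 without the pair and 59 to 258 with single libraries left out, and lower for 627 with the offsets, 1229 without the pair and 137 to 459 with single libraries left out.

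Reversals occurred among uncalled values with EP300 siRNA. HOXB2 became 0.22 without H2O2 and 0.0795 with it under GC and length offsets. HOXA11 without H2O2 ran from -0.03 to 0.12 with single libraries left out. TGIF1 without H2O2 became -0.0418 on log2(FPKM + 1), -0.0439 on log2(FPKM + 0.1) and -0.0748 with the offsets, and ran from -0.0075 to 0.0624 with single libraries left out. Adding 1 to FPKM shrinks low genes by construction: HOXA13 with H2O2 gave -0.43 and HOXC11 without gave -0.32. HOXA10 and EP300 were called with EP300 siRNA under each alternative run. Leaving out the pair and summing HOXC4 and HOXC6 were chosen after seeing the data. No paired analysis was possible because the library numbers 1 to 12 are shared by no 2 groups. At levels near 1 CPM, as for HOXA2 and HOXC11, counts limit the precision.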
